A study of Mus musculus with 4 samples.

Results

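The 41 genes described here are the core cell cycle genes, 15 of DNA synthesis (S genes, Mcm2 to Hells) and 26 of chromosome segregation and division (G2/M genes, Mki67 to Smc4). They were taken by gene symbol, and all 41 were found among the 32285 genes listed for each library. They were followed in immune cells from mouse brain at day 3 after cardiac arrest and resuscitation (CA) or sham surgery. Microglia, the resident macrophages of the brain, made up most of these cells.

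All mice were wild-type. Young mice were 3 to 6 months old and aged mice 18 to 20 months old. CA was induced with KCl, and sham mice had the surgery without the arrest. After perfusion and mechanical dissociation, a Percoll step enriched the immune cells, and a sort on CD45, which leukocytes carry on their surface, gave the input for droplet single-cell sequencing of transcript 3' ends. The 4 libraries were young sham and young CA, then aged sham with aged CA, and a library pooled 3 mice. No group had a second library, so no test between conditions could be made, and every interval below covers counting error only and not the spread between mice.

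A dividing cell first licenses and copies its DNA and then condenses and separates the chromosomes. The transcripts for these steps come in waves, and E2F factors control the S genes. DREAM and other MuvB-containing complexes, which bind CHR elements, control the G2/M genes together with CCAAT-bound NF-Y. Resting microglia turn over slowly, and after brain injury they are known to divide in place.

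Promoter sequences are shown for 10 members, to set the letters of S genes beside those of G2/M genes. Each is the 150 bases before the RefSeq transcription start on GRCm38.p6, read 5′ to 3′ on the strand of the gene. Capitals mark the searched motifs, on either strand: the E2F forms TTCCCGC with its variants TTCGCGC and also TTGCCGC and also TTGGCGC, the CHR forms TTTGAA and also TTCGAA, and the CCAAT box. Where forms on opposite strands overlap, or different motifs overlap, as in Mcm6 and Ccnb1, the capitals run together. The first 3 genes are the S genes with the highest ratios of CA to sham in aged microglia among those with a promoter in the table: Mcm6, Hells and Uhrf1, at chr1:128359706-128359855 (- strand), chr19:38930840-38930989 (+ strand) and chr17:56303187-56303336 (+ strand). The next 4 are the G2/M genes with the highest ratios in young microglia among those with a promoter, Ube2c at chr2:164769779-164769928 (+ strand), Ccnb1 at chr13:100786487-100786636 (- strand), Birc5 at chr11:117849087-117849236 (+ strand) and Bub1 at chr2:127831860-127832009 (- strand). Of these only Ube2c has a CHR form in the printed bases, and Birc5 has none of the motifs. The last 3 were picked for their letters, as the G2/M genes with at least 2 CHR forms in the printed bases: Cdk1 at chr10:69352913-69353062 (- strand), Top2a at chr11:99024190-99024339 (- strand) and Mki67 at chr7:135716380-135716529 (- strand).
Mcm6: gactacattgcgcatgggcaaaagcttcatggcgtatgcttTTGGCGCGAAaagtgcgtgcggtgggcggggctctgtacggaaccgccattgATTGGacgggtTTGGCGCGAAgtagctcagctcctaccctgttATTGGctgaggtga
Hells: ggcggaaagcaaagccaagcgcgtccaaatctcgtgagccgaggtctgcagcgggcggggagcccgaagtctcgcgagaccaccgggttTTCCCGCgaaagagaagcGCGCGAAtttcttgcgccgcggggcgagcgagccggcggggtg
Uhrf1: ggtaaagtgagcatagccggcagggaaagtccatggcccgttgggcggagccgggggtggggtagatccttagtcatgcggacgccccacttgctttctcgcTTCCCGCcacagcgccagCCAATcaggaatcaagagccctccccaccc
Ube2c: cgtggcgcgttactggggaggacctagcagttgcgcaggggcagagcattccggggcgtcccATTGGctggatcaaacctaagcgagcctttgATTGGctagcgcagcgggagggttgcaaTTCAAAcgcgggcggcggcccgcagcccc
Ccnb1: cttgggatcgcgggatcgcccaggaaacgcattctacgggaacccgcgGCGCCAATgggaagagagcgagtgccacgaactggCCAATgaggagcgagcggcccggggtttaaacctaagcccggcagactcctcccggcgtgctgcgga
Birc5: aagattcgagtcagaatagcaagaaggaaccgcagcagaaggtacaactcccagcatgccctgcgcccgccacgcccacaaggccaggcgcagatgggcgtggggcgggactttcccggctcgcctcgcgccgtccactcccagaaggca
Bub1: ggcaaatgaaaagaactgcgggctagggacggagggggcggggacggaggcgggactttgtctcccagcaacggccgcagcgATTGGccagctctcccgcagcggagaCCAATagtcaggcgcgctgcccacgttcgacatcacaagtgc
Cdk1: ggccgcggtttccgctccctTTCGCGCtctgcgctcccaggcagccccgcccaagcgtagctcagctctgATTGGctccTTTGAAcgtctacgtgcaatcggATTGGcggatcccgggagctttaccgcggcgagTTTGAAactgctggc
Top2a: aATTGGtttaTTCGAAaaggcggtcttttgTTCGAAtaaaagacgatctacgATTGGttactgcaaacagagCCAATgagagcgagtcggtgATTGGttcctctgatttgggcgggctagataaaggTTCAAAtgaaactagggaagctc
Mki67: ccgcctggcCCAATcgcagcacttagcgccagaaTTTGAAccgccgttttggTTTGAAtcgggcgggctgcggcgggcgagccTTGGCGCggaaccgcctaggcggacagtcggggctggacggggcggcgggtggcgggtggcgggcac
RefSeq promoters were at hand for 34 of the 41 members, 13 S and 21 G2/M genes, and were searched over 250 bases before the start. A gene with several starts was counted as having a motif if any of its promoters held it. An E2F form was in 7 of 13 S genes (53.8%) and in 3 of 21 G2/M genes (14.3%), beside 16% of the 10281 genes measured in microglia that had a promoter. A CHR form was in 2 of 13 S genes (15.4%) and 10 of 21 G2/M genes (47.6%), beside 15.2% of the measured genes. CCAAT was common in both lists, in 10 of 13 (76.9%) and 18 of 21 (85.7%), beside 40.6%. CHR and CCAAT stood together in 10 of 21 G2/M genes (47.6%) and 2 of 13 S genes (15.4%), beside 7.09% of the measured genes. Every member with CHR thus had CCAAT too, while of the 1560 measured genes with CHR 729 did. Over all 27025 genes of the promoter table, the shares were 9.01% for E2F, 19.6% for CHR and 37.5% for CCAAT. A match describes these letters and is not evidence of binding, and no set of promoters was tested against another.

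The libraries held 44277472 to 115892682 unique molecular identifiers (UMIs, counts of single captured transcripts) over 6794 to 10794 barcodes. After filtering, 5888 to 10131 cells remained, of which 8232, 9193, 5951 and 4724 were called microglia from 10 marker genes. Wherever 4 values are given in a row, they stand with the young libraries first and, within an age, sham before CA. The median depth of these microglia was 6092.5, 9627, 3324 and 10608 UMIs. The median number of the 10 microglial markers seen at 2000 UMIs was 9, 7, 8 and 5, so fewer markers were seen after CA, and 385 aged CA microglia stood at the minimum of 3. Pairs of libraries shared 15 to 32 barcodes. The aged sham library stood apart: it was the shallowest, haemoglobin transcripts were at 913 CPM (UMIs per 1000000 UMIs) over all its cells against 1.05 to 66.6 in the others, and in its microglia at 94.1 CPM against 1.13 to 2.88. Summed T cell markers in its microglia were at 48.3 CPM, against 2.08 to 8.2 in the other libraries, and neutrophil markers at 496 CPM, against 18.1 to 106. Mitochondrial transcripts made up a median of 1.68%, 2.58%, 1.93% and 3.73% of microglial UMIs. These values stand beside every result that rests on aged sham, and their part in those results was not tested.

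In young microglia the cell cycle genes were higher after CA as a body. Of the 41 members, 39 were at least 2-fold higher in young CA than in young sham, while 7.34% of the 13693 genes measured (a mean of at least 1 CPM over the libraries compared) were. None was 2-fold lower, against 6.31% of all genes, and the counting interval of the ratio lay above 1 for all 41, against 33.2% of all genes, and below 1 for none, against 49.3%. The median log2 ratio was 3.21 over the members and -0.11 over all genes. Summed over the 15 S genes, young sham microglia held 120.3 CPM (118 to 123) and young CA microglia 345 CPM (341 to 349), 2.87-fold more (2.80 to 2.94). The 26 G2/M genes went from 436 to 1498 CPM, 3.43-fold (3.39 to 3.48). Scaling by trimmed means (TMM) raised all log2 ratios of young CA to young sham by 0.12 and those of aged CA to aged sham by 0.13. Among all genes past 2-fold in the young comparison it moved the share that was higher from 53.8% to 64.8%.

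**Figure D1:**
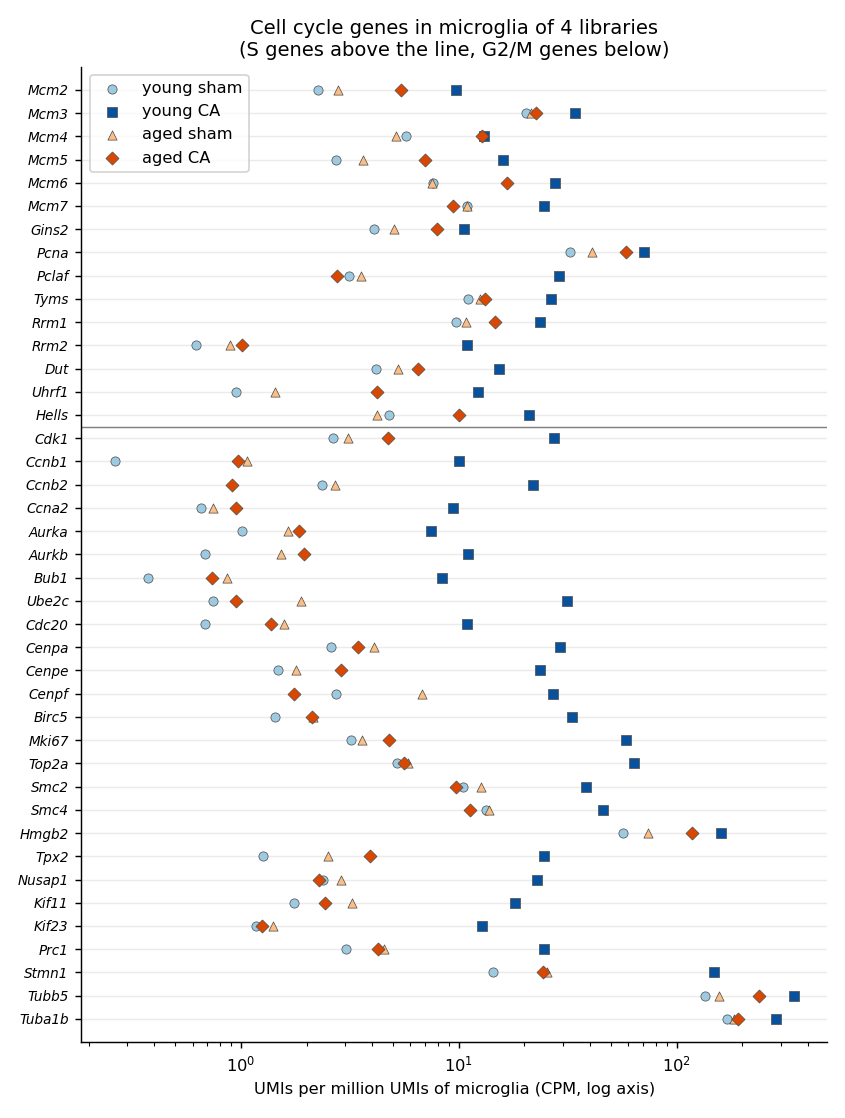
Level of each member in microglia of the 4 libraries, in CPM on a log axis; each point is 1 library (circle young sham, square young CA, triangle aged sham, diamond aged CA), S genes above the line and G2/M genes below it. The young CA squares lie rightmost for every member, and for Mcm4 the aged CA diamond, at 12.8 CPM, lies next to the square at 13.1.

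Among the genes of the replicative helicase, Mcm3, which sits at chr1:20802968-20820312 and had the most UMIs of this group, was at 20.3, 34.2, 21.5 and 22.7 CPM. Only the young CA level stood away from the others, at 1.69-fold its sham (1.58 to 1.80), and Mcm3 was 1 of the 2 members that stayed under 2-fold there. Mcm4, another subunit, was at 5.72, 13.1, 5.15 and 12.8 CPM. Its ratio was as large in aged as in young mice, 2.29-fold in young (2.04 to 2.58) and 2.48-fold in aged microglia (2.10 to 2.95). Mcm6 was at 7.65, 27.7, 7.54 and 16.7 CPM, higher after CA at both ages, 3.62-fold (3.29 to 3.99) and 2.21-fold (1.92 to 2.55). Mcm2 was at 2.27, 9.69, 2.80 and 5.43 CPM, with ratios of 4.26 (3.58 to 5.11) and 1.94 (1.53 to 2.47). Mcm7 went apart from its partners: it was at 10.9, 24.6, 10.9 and 9.40 CPM, 2.26-fold higher in young CA (2.07 to 2.46) and below sham in aged CA, at 0.862-fold (0.751 to 0.989), a position that TMM scaling ends (0.946-fold, 0.825 to 1.09). Of the 7 helicase genes, which include Gins2, 6 were 2-fold higher in young CA and 2 in aged CA.

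Pcna, the sliding clamp that holds the polymerase on DNA, lies at chr2:132249162-132253314. It was the most abundant S gene, with 32.3, 71.1, 40.9 and 58.4 CPM. After CA it was above sham, 2.21-fold in young (2.10 to 2.32) and 1.43-fold in aged microglia (1.34 to 1.52), and aged CA reached 0.821 of young CA (0.786 to 0.856). Pclaf, the clamp-associated factor, had another profile, 3.13, 28.7, 3.55 and 2.77 CPM, with 9.16-fold more in young CA (7.94 to 10.6) and 0.782-fold in aged CA (0.609 to 1). Tyms, which makes thymidylate, was at 11.0, 26.4, 12.5 and 13.2 CPM, 2.40-fold higher in young CA (2.2 to 2.61) and 1.06-fold in aged CA (0.935 to 1.2). The widest split in nucleotide supply was in Rrm2, the regulated subunit of ribonucleotide reductase, at 0.623, 10.9, 0.894 and 1.01 CPM. Its ratio in young microglia was 17.5 (12.8 to 24.7), while Rrm1, the large subunit of the same enzyme, was at 9.72 and 23.6 CPM, 2.42-fold (2.22 to 2.65).

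The pair of genes that keep DNA methylation after copying, summed, was 5.81-fold higher in young CA and 2.52-fold in aged CA, while the sums of the other S roles lay between 2.53 and 2.98 in young and between 1.2 and 1.45 in aged microglia. Single genes of other roles passed them, such as Rrm2 in young and Mcm4, above Hells, in aged microglia. Uhrf1, which recognises hemimethylated DNA and lies at chr17:56303321-56323486, was at 0.950, 12.3, 1.43 and 4.21 CPM. That was 13-fold in young (10.0 to 17.1) and 2.95-fold in aged microglia (2.15 to 4.11), the highest ratio of the 38 members measured in the aged comparison. Hells, a chromatin remodeller, was at 4.77, 20.9, 4.23 and 10.0 CPM, 4.39-fold (3.89 to 4.97) and 2.37-fold (1.97 to 2.88). Both carry E2F forms in the stretches printed above. Uhrf1 has a second RefSeq start, not printed. The 150 bases before it (chr17:56304163-56304312) hold 0 E2F forms and 2 CCAAT boxes, and the 250 bases searched hold 1 E2F form.

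Of the G2/M genes, the cyclins and kinases were summed at 7.99 CPM in young sham and 95.4 CPM in young CA, 11.9-fold (10.9 to 13.1), while the aged libraries held 11.7 (sham) and 12.1 CPM (CA), 1.03-fold (0.911 to 1.18). Cdk1, the kinase that starts mitosis, lies at chr10:69335146-69352938 and was at 2.65, 27.4, 3.10 and 4.71 CPM. It was 10.4-fold higher in young CA (8.87 to 12.2) and 1.52-fold in aged CA (1.2 to 1.93). Ccnb1, cyclin B1, was nearly absent in young sham at 0.265 CPM (17 UMIs), and at 9.99 in young CA, with 1.07 and 0.968 CPM in the aged sham and CA libraries. Its young ratio of 37.7 has a wide interval for that reason (23.4 to 65.0). Ccnb2, cyclin B2, was at 2.35, 21.8, 2.71 and 0.911 CPM, 9.25-fold higher in young CA (7.84 to 11.0) and 0.336-fold in aged CA (0.232 to 0.482). Bub1, a kinase of the spindle checkpoint, was at 0.374, 8.34, 0.864 and 0.740 CPM, 22.3-fold in young microglia (14.9 to 35.0).

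The highest young ratio of all members was that of Ube2c, the ubiquitin-conjugating enzyme of the anaphase-promoting complex, at chr2:164769898-164778822. It was at 0.748, 31.3, 1.88 and 0.949 CPM. Young CA stood 41.8-fold above its sham (31.5 to 56.9), and aged CA stood at 0.506 of its own sham (0.342 to 0.745). Birc5, survivin, a member of the chromosomal passenger complex, was at 1.43, 33.0, 2.15 and 2.11 CPM, 23.0-fold in young (18.7 to 28.7) and 0.982-fold in aged microglia (0.724 to 1.34). Cenpf, a kinetochore protein, was at 2.74, 27.1, 6.76 and 1.75 CPM. It had the lowest aged ratio of the members measured, 0.258 (0.200 to 0.330), next to 9.89 in young microglia (8.49 to 11.6), and its aged sham level was above that of young sham, 2.47-fold (2.02 to 3.02).

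The nuclear protein Mki67 and the topoisomerase Top2a, much used as markers of dividing cells, had like profiles, and both were picked for display after their values had been seen. Mki67, at chr7:135689784-135716361, was at 3.19, 58.5, 3.58 and 4.77 CPM, 18.3-fold in young CA (15.9 to 21.1) and 1.33-fold in aged CA (1.07 to 1.67). Top2a, at chr11:98992943-99024189, was at 5.20, 63.5, 5.87 and 5.58 CPM, 12.2-fold (10.9 to 13.7) and 0.951-fold (0.791 to 1.14). The condensin subunits Smc2 and Smc4 moved less. Smc2 was at 10.4, 38.3, 12.7 and 9.70 CPM, 3.69-fold in young CA (3.40 to 4.01) and 0.762-fold in aged CA (0.669 to 0.869). Smc4 was at 13.4, 45.8, 13.8 and 11.2 CPM, 3.43-fold (3.18 to 3.69) and 0.807-fold (0.714 to 0.914).

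Spindle genes were also highest in young CA. Tpx2, which activates Aurora A, was at 1.26, 24.6, 2.5 and 3.93 CPM, 19.5-fold in young CA (15.6 to 24.6) and 1.57-fold in aged CA (1.21 to 2.05). Kif11, the motor that pushes the poles apart, was at 1.76, 18.2, 3.25 and 2.43 CPM, 10.3-fold (8.54 to 12.6) and 0.748-fold (0.575 to 0.975). Prc1, which bundles the midzone, was at 3.04, 24.5, 4.56 and 4.27 CPM, 8.05-fold (6.96 to 9.37) and 0.937-fold (0.760 to 1.16). Stmn1, Hmgb2, Tubb5 and Tuba1b are described below. The other 11 members not yet described lay between 2.60-fold (Gins2, of the helicase) and 16-fold in young CA. At the upper end were Cenpe, a kinetochore motor, Aurkb, the kinase of the passenger complex, and Cdc20, the activator of the anaphase-promoting complex. Cenpe was at 1.48, 23.6, 1.79 and 2.89 CPM. In aged CA these 11 lay between 0.788-fold (Nusap1, a spindle protein) and 1.92-fold (Mcm5, at 2.73, 16, 3.64 and 6.97 CPM).

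Tubb5, Tuba1b and Hmgb2 were the 3 most abundant members in every library, and together with Stmn1, which was less abundant, they made up most of the G2/M sum. Cells use all 4 outside division too. Tubb5, a beta tubulin, was at 135, 344, 157 and 238 CPM, 2.54-fold in young CA (2.48 to 2.60) and 1.52-fold in aged CA (1.47 to 1.57). Tuba1b, an alpha tubulin, was at 171, 286, 183 and 192 CPM, with the lowest young ratio of the 41, 1.68 (1.64 to 1.71), and 1.05 in aged microglia (1.02 to 1.08). Hmgb2, a chromatin protein, was at 56.6, 160.4, 74.1 and 117 CPM, 2.84-fold (2.74 to 2.94) and 1.57-fold (1.5 to 1.65). Stmn1, stathmin, a tubulin-binding protein, was the exception in size: it was at 14.4, 148, 25.3 and 24.3 CPM, 10.3-fold in young CA (9.59 to 11.0) and 0.959-fold in aged CA (0.879 to 1.05). Tubulin and Hmgb genes have close copies in the genome, and how the counting shared reads between copies is not given in the sources used here.

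In aged microglia the members did not move as a body. Of the 38 measured, 4 were at least 2-fold higher in aged CA than in aged sham (Uhrf1, Mcm4, Hells and Mcm6, all S genes), against 6.93% of 14273 genes, and 2 were at least 2-fold lower (Cenpf and Ccnb2, both G2/M genes), against 16.1%. Over both lists together the higher members were 10.5% of those measured, so both counts stand near the background or below it. Taken by list, the higher members were 4 of 14 S genes (28.6%), which is above the background, and 0 of 24 G2/M genes. Rrm2, Ccna2 and Bub1 were under the level needed. The median log2 ratio of the members was 0.08, and -0.05 over all genes. The interval of the ratio lay above 1 for 10 of 14 S genes and below 1 for 1 (Mcm7), and among 24 G2/M genes it lay above 1 for 7 and below 1 for 6. Over all genes it lay above 1 for 37.7% and below 1 for 43.5%, and the difference between the S and G2/M lists was not tested. The direction of Top2a, Birc5, Stmn1 and Prc1 in aged microglia turned with TMM factors, that of Birc5 also with a mitochondrial limit of 20% or the highest doublet scores removed, and that of Stmn1 with a gate of 5 markers. Summed, the S genes went from 136 CPM (132 to 140.2) to 193 CPM (189 to 196), 1.41-fold (1.37 to 1.47). The G2/M genes went from 519 to 641 CPM, 1.23-fold (1.21 to 1.26), and that difference sat in the broadly used genes, since the other 22 were at 80.5 CPM (77.5 to 83.6) in aged sham and 69.9 CPM (67.7 to 72.2) in aged CA. In young microglia the same 22 genes were at 59.5 CPM (57.6 to 61.4) and 559 CPM (555 to 564).

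**Figure D2:**
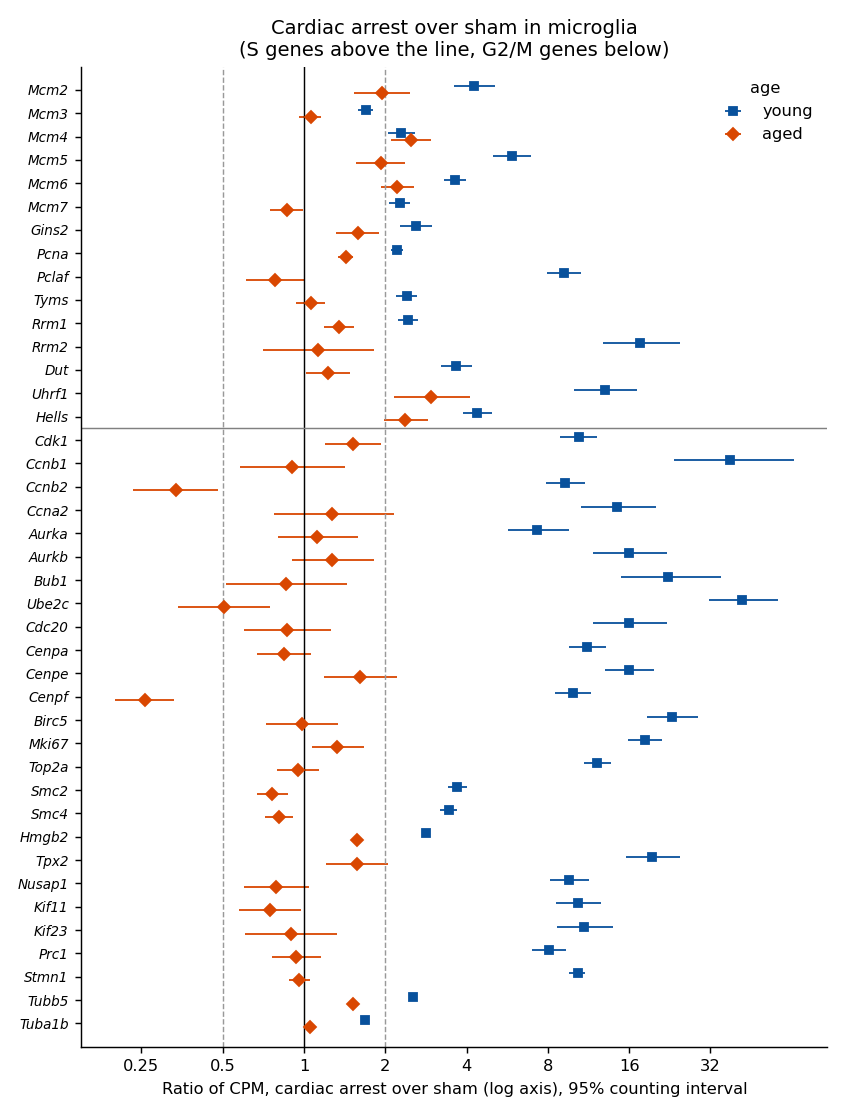
Ratio of the level in CA to that in sham for each member in young (squares) and aged (diamonds) microglia, on a log axis with the 95% counting interval of the ratio; the solid line is a ratio of 1 and the dashed lines are 2-fold. Every square lies right of 1, with 39 of 41 past 2-fold, and the diamonds straddle 1, the S genes above the line mostly to its right.

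The effects at the 2 ages come from separate pairs of libraries, and whether they differ was not tested, since there is no spread between libraries to set against the difference. For 7 members the interval lay above 1 in young and below 1 in aged microglia: Mcm7, Ccnb2, Cenpf, Ube2c, Kif11, Smc2 and Smc4. No member had the reverse. With TMM factors 4 of the 7 kept this pattern (Ccnb2, Cenpf, Ube2c and Smc2), and the aged intervals of Mcm7, Kif11 and Smc4 reached 1 or more. With a gate of 5 markers Mcm7 and Kif11 lost it, and with a mitochondrial limit of 20% Mcm7 did.

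Set side by side by age, the CA libraries differed much more than the sham libraries; these comparisons reuse the same 4 libraries and are not independent of the ratios above. After CA, all 41 members were lower in aged than in young microglia, 30 of them at least 2-fold, against 5.08% of 13590 genes, and none was 2-fold higher, against 4.34%. The interval lay below 1 for 40, against 36% of all genes, and above 1 for none, against 41.4%. Mcm4 was the exception at 0.977 (0.889 to 1.07). The gap was larger for G2/M genes, with a median log2 ratio of -3.02 and 23 of 26 past 2-fold, than for S genes, with a median of -0.99 and 7 of 15. Ube2c was at 0.0303 of its young CA level (0.0225 to 0.0401) and Pcna at 0.821. In sham, 4 of 37 measured members were at least 2-fold higher in aged microglia (Ube2c, Cenpf, Cdc20 and Aurkb), 10.8% of them and so near the background of 8.89% of 14199 genes, and none was 2-fold lower, against 0.493%. The interval lay above 1 for 21 of the 37, against 30.8% of all genes, and below 1 for none, against 32.2%. The S genes summed to 1.13-fold (1.09 to 1.17) and the G2/M genes to 1.19-fold (1.17 to 1.21) in aged over young sham. The aged sham library also carried the haemoglobin, neutrophil and T cell transcripts given above.

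To ask how many cells held the signal, each microglial barcode of at least 2000 UMIs was thinned to 2000 UMIs, and the distinct members seen in it were counted, leaving out Stmn1, Hmgb2, Tubb5 and Tuba1b. This kept 7462, 8693, 4016 and 4574 microglia and left out 770, 500, 1935 and 150 shallower ones. Cells with at least 3 of the 37 members, called cycling here, were 52 of 7462 in young sham (0.697%, exact interval 0.521 to 0.913) and 794 of 8693 in young CA (9.13%, 8.54 to 9.76). Aged mice had 74 of 4016 in sham (1.84%, 1.45 to 2.31) and 92 of 4574 after CA (2.01%, 1.62 to 2.46). Young CA stood far above the other libraries, 13.1-fold over its sham (9.89 to 17.7). Aged CA was at 1.09 of aged sham (0.795 to 1.5), a difference within counting error. At 4000 UMIs per cell, which keeps only deeper cells, the log2 ratio of these aged shares was 0.86 rather than 0.13. Without thinning, the shares were 10.0%, 30.5%, 12.1% and 22.7%, in libraries that differ in depth as given above. Non-immune cells, which should not divide, also often reached 3 members without thinning, as given below.

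The class is a range on a count and has no gap at its edge. Cells with exactly 2 members numbered 190, 469, 137 and 229, and cells with exactly 3 numbered 24, 199, 33 and 48. At 5 or more members the shares were 0.281%, 5.76%, 0.672% and 0.590%. The tail was most filled in young CA, with 221 microglia at 10 or more members, against 12 in young sham and, in the aged libraries, 6 (sham) and 9 (CA). Non-immune cells were mostly neurons carried through the sort, which should not divide. Thinned to 2000 UMIs, 0 of 128, 1 of 103, 1 of 242 and 0 of 180 of them reached 3 members. Their median depths before thinning were 31984, 22631, 8189 and 26633 UMIs. Without thinning, 37.5%, 28.2%, 14.9% and 36.1% of them reached 3 members. The small counts at 2000 UMIs set no useful limit within a library. Over the 4 libraries together, 2 of 653 thinned non-immune cells reached 3 members (0.306%, 0.0371 to 1.1) and 0 of 653 reached 5, which allows up to 0.563%. The young sham share of 0.697% lay inside the first of these intervals, and the shares of the other 3 libraries lay above it. At 2000 UMIs non-immune cells also held fewer members, with 0 members in 77.2% to 85.4% of them, against 63.9% to 77.5% of microglia. Their share therefore cannot give the rate at which microglia reach 3 members without cycling, and that rate was not tested.

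**Figure D3:**
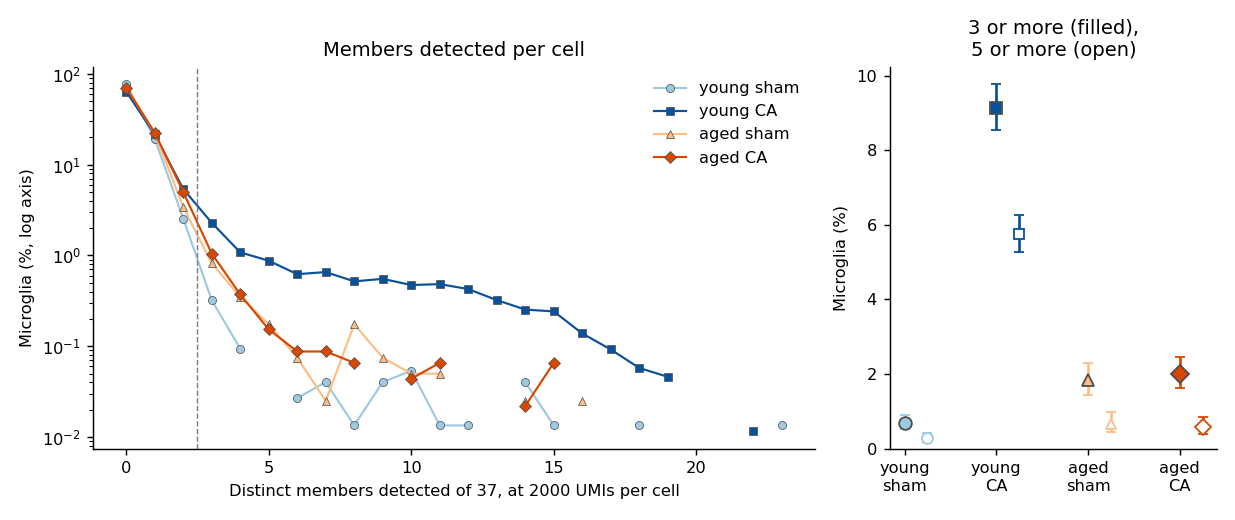
Left, share of microglia (%, log axis) by the number of distinct members detected of 37 at 2000 UMIs per cell in each library, with the dashed line at the limit for cycling; right, share with 3 or more (filled) and 5 or more (open) members, with exact 95% binomial intervals. The young CA line lies above the others from 3 to 19 members, and its share of 9.13% stands above 0.697% to 2.01% in the other libraries.

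Single genes differed in how their shares lay at equal depth. Mki67 was detected in 17 of 7462 young sham microglia (0.228%), 350 of 8693 young CA (4.03%), and in the aged libraries in 17 of 4016 (sham, 0.423%) and 19 of 4574 (CA, 0.415%), beside 0 of 128, 1 of 103, 2 of 242 and 0 of 180 non-immune cells. Before thinning those shares in microglia were 0.536%, 9%, 0.896% and 1.31%. Broad genes were seen far more widely: Tubb5 was detected in 18.9%, 34.4%, 23.7% and 30.2% of microglia. Pcna was detected in 4.6%, 8.78%, 7.32% and 9.44%, Mcm4 in 0.911%, 1.83%, 0.747% and 2.25%, and Hmgb2 in 8.56%, 16.2%, 11.4% and 17.9%. These were the 3 of 41 members whose share in aged CA was at or above that in young CA, and for Pcna, Mcm4 and Hmgb2 alike the exact intervals of those shares overlapped.

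Cycling cells were also described by the side of the cycle they showed. The side was scored on 15 S genes and the 22 G2/M genes left without Stmn1, Hmgb2, Tubb5 and Tuba1b, lists of unequal size. In young CA, 470 of 794 cycling microglia (59.2%, 55.7 to 62.6) had more G2/M than S members. In aged CA, 18 of 92 did (19.6%, 12 to 29.1), and 71 of 92 had more S members (77.2%, 67.2 to 85.3). Young sham had 15 of 52 on the G2/M side (28.8%, 17.1 to 43.1) and aged sham 26 of 74 (35.1%, 24.4 to 47.1). With 5 or more members, the G2/M side held 73.3% of cycling cells in young CA (69.1 to 77.1) and 40.7% in aged CA (11 of 27, 22.4 to 61.2), with 66.7% in young sham (14 of 21, 43 to 85.4) and 55.6% in aged sham (15 of 27, 35.3 to 74.5). At that limit the young sham share was no longer apart from that of young CA. The intervals of aged sham and aged CA overlapped each other at either limit.

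Depth, doublets and markers of other cells were looked at in these cells. Cycling microglia were deeper than the rest before thinning in young sham (median 13317 against 7326.5 UMIs), young CA (18055.5 against 9687) and aged CA (15607.5 against 10772), and shallower in aged sham (4062 against 5680.5). Of the 794 in young CA, 76 were among the barcodes with the highest doublet scores, as were 816 of all 9193 young CA microglia. In young sham, aged sham and aged CA, 2 of 52, 1 of 74 and 2 of 92 cycling cells were. Among all microglia of these libraries, 629 of 8232, 452 of 5951 and 266 of 4724 were. None of these barcodes was removed. In aged sham the 10 T cell markers summed to 260.0 CPM in cycling microglia and B cell markers to 195 CPM, against 0.893 to 14.5 and 26 to 37.9 CPM in those of the other libraries. What these transcripts add to the aged sham share was not tested. Barcodes without a class reached 3 members in 7.34%, 7.84%, 6.59% and 2.06% of cells, and adding those led by microglial markers left the log2 ratio of shares at 3.65 in young and 0.04 in aged microglia.

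For each gene, young CA microglia with at least 3 other members made up about 9% of cells, from 8.41% for Pcna to 9.13% for the broad genes, and held 13.6% to 14.7% of the UMIs. The 22 narrower G2/M genes had from 70.8% (Ccnb2) to 96.0% (Top2a and Kif23) of their UMIs in these cells. Kif11 stood at 95.5%, Nusap1 at 94.9% and Mki67 at 90.4%, while Ube2c, with the highest young ratio, stood at 76.1%, Cenpa at 78.1% and the condensin gene Smc2 at 72.6%. S genes ranged from 39.5% (Mcm3) to 95% (Rrm2). Pcna was at 44.4% and Mcm6 at 49.6%. Broad genes were spread as well, at 37.9% for Tubb5, 40.6% for Tuba1b, 58.4% for Hmgb2 and 65.1% for Stmn1.

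**Figure D4:**
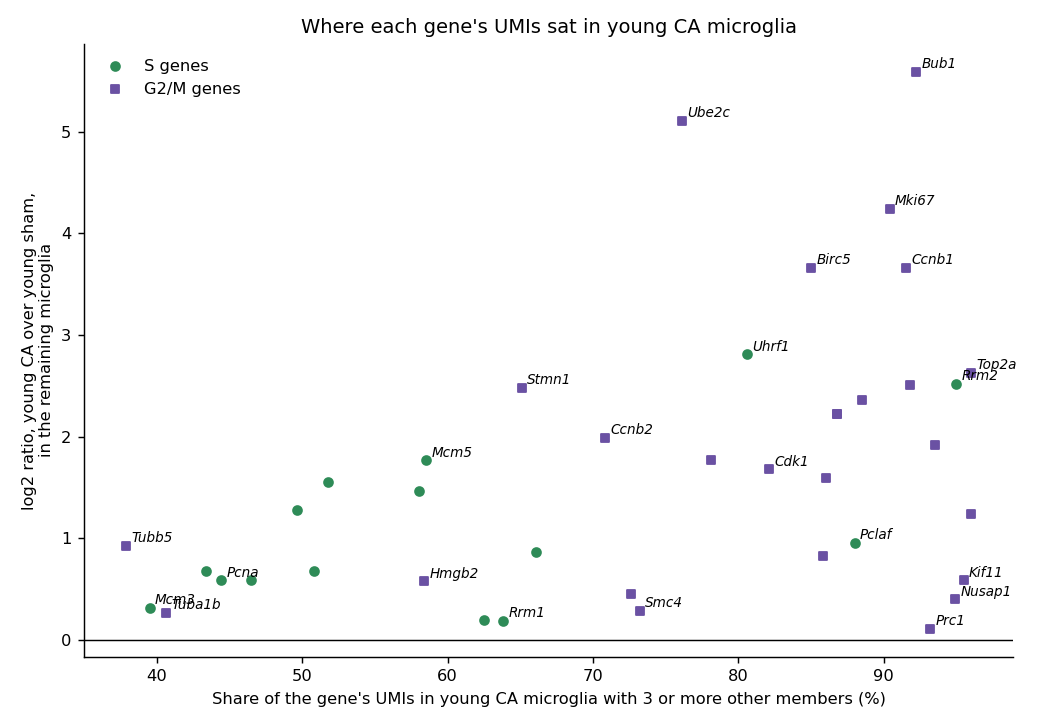
For each member, the share of its UMIs in young CA microglia held by cells with 3 or more other members (x axis, %) against the log2 ratio of young CA to young sham in the remaining microglia (y axis), S genes as circles and G2/M genes as squares. Prc1, at 93.2%, lies at the right with a y value near 0, and Bub1, at the top, rests on a single UMI in the remaining young sham microglia.

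The remaining microglia are described without a reading of the size of the ratios, since the members themselves decided which cells were set aside. In young microglia with fewer than 3 members, the S genes were at 166 CPM in CA against 107 in sham, 1.54-fold (1.5 to 1.59), and the G2/M genes at 677 against 397 CPM, 1.70-fold (1.68 to 1.73). For single genes the remaining cells are those with fewer than 3 other members, the gene itself not counted, so they are a slightly different set for each gene. Stmn1 was at 60.8 against 10.9 CPM in them, 5.58-fold (5.15 to 6.05), and Ube2c at 8.80 against 0.255 CPM, 34.5-fold (21.1 to 60.7). By contrast Prc1 was at 1.96 against 1.82 CPM, 1.08-fold (0.847 to 1.39), and Nusap1 at 1.38 against 1.05 CPM, 1.32-fold (0.966 to 1.81). All these sets still include cells with 1 or 2 members.

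In aged microglia with fewer than 3 members, the S genes were at 161 CPM in CA against 116 in sham, 1.39-fold (1.34 to 1.45). The aged sham level of Cenpf lay mostly outside cells with 3 or more other members, which held 41 of its 215 UMIs (19.1%), against 175 of 193 for Top2a (90.7%).

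Other genes of the cycle, from lists kept apart from the 41, extended these profiles. Of 34 further mitosis genes, 33 were at least 2-fold higher in young CA, and of 22 genes of origin licensing and the replication fork 16 were, against 7.34% of all genes. In aged CA these counts were 5 of 29 and 7 of 21 measured, against 6.93% of all genes. The interval there lay above 1 for 10 mitosis genes and below 1 for 7, and for 18 and 0 of the replication genes, beside 37.7% and 43.5% of all genes. Cdca3, a mitotic regulator, was at 0.654, 18.1, 1.31 and 1.18 CPM, 27.7-fold in young microglia (20.4 to 38.5). Cdca8, borealin, was 23.5-fold higher and the kinase Pbk 18.6-fold, and the lowest of the list was Pttg1, securin, at 1.30-fold (27.7 to 36.0 CPM).

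Mcm10, a helicase activator, was at 0.312, 5.38, 0.626 and 2.07 CPM, higher after CA at both ages, 17.3-fold (11.1 to 28.5) and 3.31-fold (2.06 to 5.56). Pole, the leading-strand polymerase, was at 1.18, 10.5, 2.03 and 7.19 CPM, 8.89-fold (7.04 to 11.4) and 3.55-fold (2.74 to 4.67). Clspn, claspin of the replication checkpoint, had a ratio of 8.73 in young (7.17 to 10.7) and of 1.63 in aged microglia (1.29 to 2.08). Orc1 was the exception at 9.83 and 8.73 CPM, 0.888-fold in young CA (0.801 to 0.985).

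Genes that control entry into S phase were mixed, with 7 of 16 at least 2-fold higher in young CA and 3 of 14 in aged CA, against 7.34% and 6.93% of all genes. E2f8 was at 0.576, 6.80, 0.656 and 0.949 CPM (11.8-fold in young, 8.47 to 16.9) and E2f7 at 0.499, 4.51, 0.536 and 0.380 CPM (9.05-fold, 6.32 to 13.4), both of them repressor E2Fs. Ccne1, cyclin E1, was at 0.639, 6.06, 0.626 and 1.71 CPM, higher at both ages, 9.49-fold (6.92 to 13.4) and 2.73-fold (1.68 to 4.62). E2f3 was lower at both ages, 218 to 157 CPM (0.718, 0.702 to 0.735) and 195 to 138 CPM (0.709, 0.686 to 0.734).

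The inhibitors of the cycle and growth arrest genes were mixed. In young CA 4 of 11 were at least 2-fold higher and 0 were 2-fold lower, against 7.34% and 6.31% of all genes. In aged CA 2 of 10 measured were higher and 2 lower, against 6.93% and 16.1%. Their summed level was below sham at both ages, 0.895-fold in young (0.885 to 0.905) and 0.793-fold in aged microglia (0.782 to 0.804). Some single genes were higher at both ages. Cdkn1a, p21, which blocks cyclin-dependent kinases, was at 6.05, 48.0, 13.1 and 52.9 CPM. That was 7.94-fold in young (7.16 to 8.83) and 4.03-fold in aged microglia (3.64 to 4.46), with the highest level in aged CA. Cdkn2d was also higher at both ages, at 5.73, 19.1, 7.84 and 24.5 CPM, 3.33-fold (2.98 to 3.73) and 3.13-fold (2.74 to 3.58). Cdkn2a, p16 and p19ARF, was at 1.81, 6.63, 2.80 and 2.60 CPM, 3.67-fold in young (3.01 to 4.51) and 0.929-fold in aged microglia (0.709 to 1.22). Cdkn1c was lower at both ages, at 11.7, 6.98, 12.9 and 3.02 CPM, 0.595-fold (0.536 to 0.661) and 0.233-fold (0.193 to 0.281).

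Within young CA, cycling microglia were compared with the rest for genes outside the 41, as a description, since the cells were chosen by members. Ccne1 was at 35.5 CPM in cycling cells and 1.04 in the rest, and E2f7 at 29.6 and 0.213. Cdkn1a was at 109 and 37.6 CPM. The D cyclin Ccnd3 and the antiproliferative gene Btg2 went the other way, at 440.4 against 1144 CPM and 164 against 345 CPM. The 10 microglial markers stayed within 0.687 (P2ry12) to 1.37 (Olfml3) of the level in the rest.

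**Figure D5:**
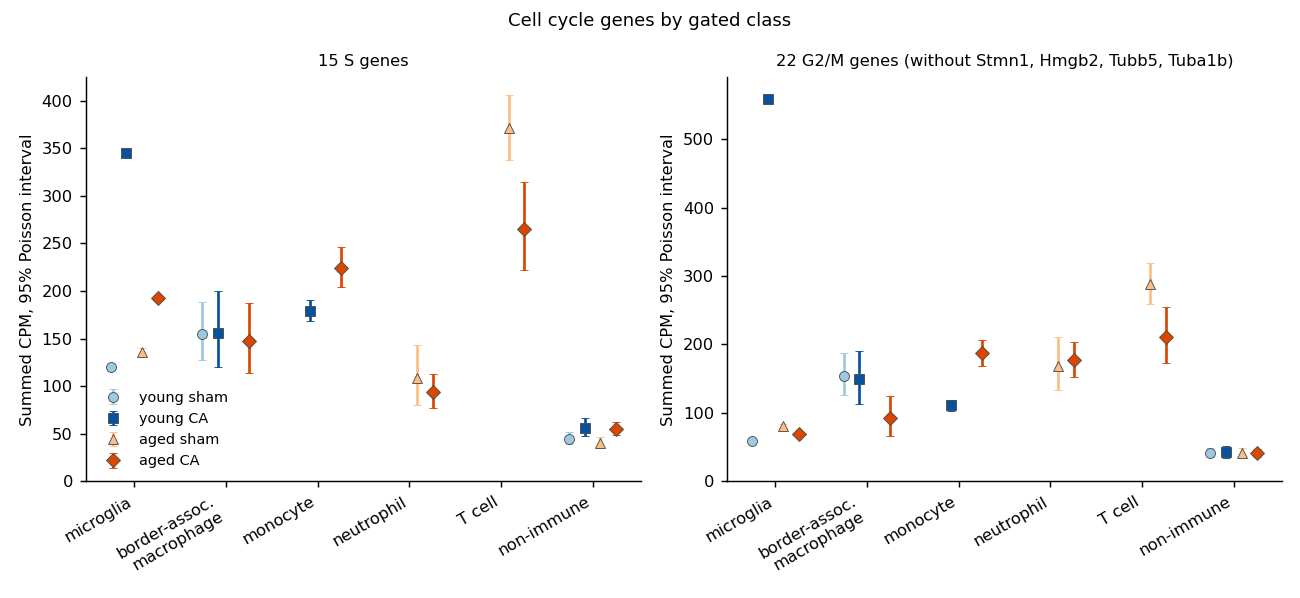
Summed level of the 15 S genes (left) and of the 22 G2/M genes other than Stmn1, Hmgb2, Tubb5 and Tuba1b (right) in each gated class with at least 50 cells in a library, in CPM from 0, with exact 95% Poisson intervals; symbols are the libraries. Young CA microglia stand highest for the G2/M genes at 559 CPM, and T cells of aged sham stand highest for the S genes at 371 CPM.

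Outside microglia, only classes with at least 50 cells in a library were given levels. Border-associated macrophages, which line the vessels and meninges, were at 155 CPM (127 to 188) of S genes in young sham and 156 CPM (119.9 to 199.6) in young CA, a difference within counting error. Their 22 narrower G2/M genes were at 154 and 149 CPM, and Cenpf alone made up 43.3 and 52.0 CPM of these. Monocytes were at 179 CPM of S genes in young CA and 224 CPM in aged CA, and at 111 and 187 CPM of the 22 G2/M genes. Cycling monocytes were 3 of 311 and 3 of 70.

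T cells had the highest S gene level of the classes shown, 371 CPM in aged sham (338 to 406) and 265 CPM in aged CA (222 to 314), with 11 of 130 (8.46%) and 2 of 60 (3.33%) cycling. Neutrophils, which do not divide once mature, had 109 (sham) and 94.0 CPM (CA) of S genes in aged mice, with 4 of 44 (9.09%) and 0 of 69 cycling. Their G2/M sums of 1382 and 1389.5 CPM were mostly Hmgb2, at 1057 and 1116 CPM. Non-immune cells were the lowest, at 40.5 to 56.5 CPM of S genes and 41.3 to 42.4 CPM of the 22 G2/M genes, with the largest member Stmn1 at 34.7 to 40.5 CPM.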

How the data were processed

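The deposited values are raw UMI counts of each gene in each barcode, for 4 libraries. Cell Ranger 7.1.0 and mm10 are named by the submitters' processing notes, while gene annotation and cell calling are not given in the sources used here. Everything else was computed here with Python 3.11.15, numpy 2.4.6, scipy 1.17.1, scanpy 1.11.5 and edgeR 4.0.16 (for TMM factors only). Barcodes were kept with at least 500 UMIs, 200 genes and at most 10% mitochondrial UMIs. Each was thinned to 2000 UMIs, where it had more, and given the class of the marker list with the most distinct markers of 10, with at least 3 and at least 2 more than any other lineage; the rest had no class. Scrublet's own threshold marked at most 1 barcode in a library, so it had not worked, and doublets were not removed. An alternative removed the highest scores, at 0.8% per 1000 cells.

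CPM are the raw UMIs of a gene summed over the cells of a class, per 1000000 UMIs of that class. Levels have exact Poisson intervals, ratios an exact interval from both counts, and shares Clopper-Pearson intervals, all at 95%. These cover counting error only. With 1 library per group, no p-value is given, and 2-fold is the limit for a difference. The calculation of ratios and intervals was tested on simulated data. Reads come from transcript 3' ends, so CPM were not divided by gene length.

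The members and lists were chosen with earlier results of these data known. Named were, by rule, the most abundant member of each role, the 5 highest and 5 lowest ratios of CA to sham at each age, Stmn1, Hmgb2, Tubb5 and Tuba1b, the 3 highest and the lowest of each further list, Cdkn1a, and genes with opposite intervals at the 2 ages; other members were named after their values were seen. Positions are from GENCODE M21 on GRCm38, where 41 of 41 matched by identifier. Promoters are from RefSeq on GRCm38.p6.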

Additional observations from a re-analysis of the deposited data

Results flagged for a closer look

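For 7 members the ratio of CA to sham in microglia was above 1 at one age and below 1 at the other, with both counting intervals clear of 1. The difference between the ages was not tested, because each group is 1 library. The log2 ratios in young and aged microglia were 1.17 and -0.21 for Mcm7, 3.21 and -1.57 for Ccnb2, 3.31 and -1.95 for Cenpf, 5.39 and -0.98 for Ube2c, 3.37 and -0.42 for Kif11, 1.88 and -0.39 for Smc2, and 1.78 and -0.31 for Smc4. All 7 were higher in young CA, 6 of them are G2/M genes, and each of the aged values uses the aged sham library. With TMM factors 4 of the 7 kept intervals clear of 1 on both sides; the aged ratios of Mcm7 (0.946, 0.825 to 1.09), Kif11 (0.821, 0.631 to 1.07) and Smc4 (0.886, 0.783 to 1) did not. Mcm7 was also lost with a mitochondrial limit of 20%, and Mcm7 and Kif11 with a gate of 5 markers.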

How the results depend on the processing

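No paired analysis was possible because each group is 1 library, and leaving out a replicate was not possible for the same reason. Values are log2 ratios unless a count is named. In the young comparison of CA with sham, the S genes went from 1.52 to 1.64 with TMM factors. The G2/M genes went from 1.78 to 1.90 with TMM factors, 1.80 with the highest Scrublet scores removed and 3.23 without Stmn1, Hmgb2, Tubb5 and Tuba1b. The share of cycling microglia went from 3.71 to 4.26 when thinned to 1000 UMIs, 2.99 at 4000 UMIs and 4.36 at 5 or more members. In the aged comparison, the S genes went from 0.50 to 0.63 with TMM factors. The G2/M genes went from 0.30 to 0.44 with TMM factors, 0.28 at a mitochondrial limit of 20%, 0.27 with unclassed barcodes led by microglial markers added (an alternative chosen after seeing the data), and -0.20 without the 4 broad genes, where the direction turned. The aged share went from 0.13 to 0.86 at 4000 UMIs, and 1 member rather than 2 was 2-fold lower with a pseudocount of 1 CPM. For aged over young sham, TMM factors gave 0.11 for S genes (0.18) and 0.19 for G2/M genes (0.25), which were at 0.44 without the 4 broad genes. The share was 0.64 at 4000 UMIs (1.40), and 1 member rather than 4 was 2-fold higher with the pseudocount. For aged over young CA, the S genes (-0.84) were at -0.80 with a gate of 5 markers and -0.89 with TMM factors. The G2/M genes (-1.22) were at -1.25 with the mitochondrial limit of 20%, -1.25 with the highest Scrublet scores removed, -1.27 with TMM factors and -3.00 without the 4 broad genes. The share (-2.18) was at -2.99 with 1000 UMIs, -1.49 with 4000 UMIs and -3.29 at 5 or more members. Where no construction of the alternative shows it, the cause was not tested. Of 984 ratios of single members under 6 alternatives, 958 kept within their interval, 26 moved and 0 were counted as reversed. That count leaves out the changes of direction given above for Top2a, Birc5, Stmn1 and Prc1 in aged microglia. Depth limits the aged sham library most, where 1935 microglia were too shallow for the counts per cell.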
